A study of Rattus norvegicus with 6 samples.

Results

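The fibrillar collagen chains described here are 5 genes, Col1a1, Col3a1, Col5a1, Col5a2 and Col5a3, taken by name from a table of 16209 genes measured by bulk RNA sequencing of rat liver. All 5 passed the filter on low values, as did 14639 genes in all. Col1a2, the partner chain of Col1a1, was not analysed here. The samples were livers of rats with liver fibrosis, with 3 libraries for the vehicle group and 3 for the group given the plant biflavone ginkgetin (10 mg/kg/day). The study asked what ginkgetin does to the fibrotic liver. Both groups carry the fibrosis, and there was no healthy liver among the samples. The vehicle columns are headed TAA, letters that no label explains, and were taken as vehicle because it is the only other group, so every direction given here rests on that. Strain, sex, age, the agent that caused the fibrosis and the length of treatment are not given in the labels used here.

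Fibrillar collagens are secreted as procollagens whose chains wind around each other, are trimmed outside the cell and assemble into the fibrils of scar tissue. In the liver they come mainly from hepatic stellate cells that have turned into myofibroblasts, and from portal fibroblasts. Type I and type III collagen form the bulk of the scar. Type V collagen is a minor component that starts fibrils and limits their diameter.

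The vehicle library with the highest collagen also stood apart in its cell markers. Each library held between 13372367 and 14933853 reads in genes, and values are normalized read counts. The normalized values summed to 8265117 in vehicle replicate 3, against 11768875 to 16991873 in the other 5 libraries. Sums of normalized reads are therefore not shares of a library. Over 12 hepatocyte markers, Alb among them, vehicle replicate 3 summed to 332907 normalized reads, against 1264850 to 2052610 in the other vehicle libraries and 1623070 to 2543360 with ginkgetin. Over 12 stellate cell and myofibroblast markers it summed to 35222, against 7493 and 8759 in the other vehicle libraries and 5177 to 6202 with ginkgetin. Vim, the vimentin gene, alone gave 17856 of that sum, and not all 12 markers were highest in vehicle replicate 3. Its 8 macrophage markers summed to 25968, against 2973 to 6649 in the other 5 libraries. Gpnmb alone gave 16728 of that sum. The macrophage markers Clec4f and Marco were instead lowest in vehicle replicate 3, at 312 and 40.5 normalized reads, while the other macrophage markers were highest there. The difference of each chain is therefore given with and without vehicle replicate 3. In bulk tissue, fewer cells of a type and less RNA per cell cannot be told apart.

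Reads from the 5 chains together made up 0.0613% of all reads in vehicle replicate 1 (95% Wilson interval 0.0600 to 0.0626%), 0.0977% in replicate 2 (0.0961 to 0.0993%) and 1.37% in replicate 3 (1.37 to 1.38%). With ginkgetin the shares were 0.0251% (0.0243 to 0.0259%), 0.0327% (0.0317 to 0.0336%) and 0.0153% (0.0146 to 0.0159%). All ginkgetin libraries lay below all vehicle libraries. These intervals cover counting error only. Col3a1 alone gave 67.1 to 85.3% of the reads of the 5 chains in each library, so the total mostly follows that gene.

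Col1a1 encodes the main chain of type I collagen, the most abundant collagen of scars. It stood at 1459, 2473 and 32623 normalized reads in vehicle replicates 1 to 3, and at 458, 294 and 157 in ginkgetin replicates 1 to 3. The groups did not overlap, and the lowest vehicle library was 3.19 times the highest ginkgetin library. On the log2(value + 1) scale the ginkgetin mean was 8.12 ± 0.77 (SD, n = 3) and the vehicle mean 12.26 ± 2.40 (SD, n = 3). The difference was -4.14 (SE 1.04, 95% interval -6.54 to -1.74). It did not pass the threshold of 0.05 over all genes (limma, Benjamini-Hochberg adjusted p = 0.111). Without vehicle replicate 3 the difference was -2.78 (SE 0.428, interval -3.75 to -1.80), 6.85-fold lower with ginkgetin, and Col1a1 was called lower (limma adjusted p = 0.0365). There 0.635% of the genes tested were called lower. It was also called without vehicle replicate 1 (-5.02, limma adjusted p = 0.0325), where 3.32% of genes were called lower. It was not called without vehicle replicate 2 (limma adjusted p = 0.274) or without any 1 ginkgetin library (0.179 to 0.330). The call thus depends on which library is left out.

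Col3a1 encodes the only chain of type III collagen, which is laid down early in scarring. Its values were 7747, 8338 and 76088 normalized reads across vehicle replicates 1 to 3, against 3132, 4527 and 2164 with ginkgetin. Vehicle replicates 1 and 2 differed by a factor of 1.08, while replicate 3 was 9.46 times their mean. The groups again did not overlap, with the lowest vehicle library at 1.71 times the highest ginkgetin library. The difference was -2.44 on the log2 scale (SE 0.875, 95% interval -4.45 to -0.43, limma adjusted p = 0.185). Without vehicle replicate 3 it was -1.36 (SE 0.343, interval -2.13 to -0.59, limma adjusted p = 0.102), and it did not pass in either case.

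**Figure D1:**
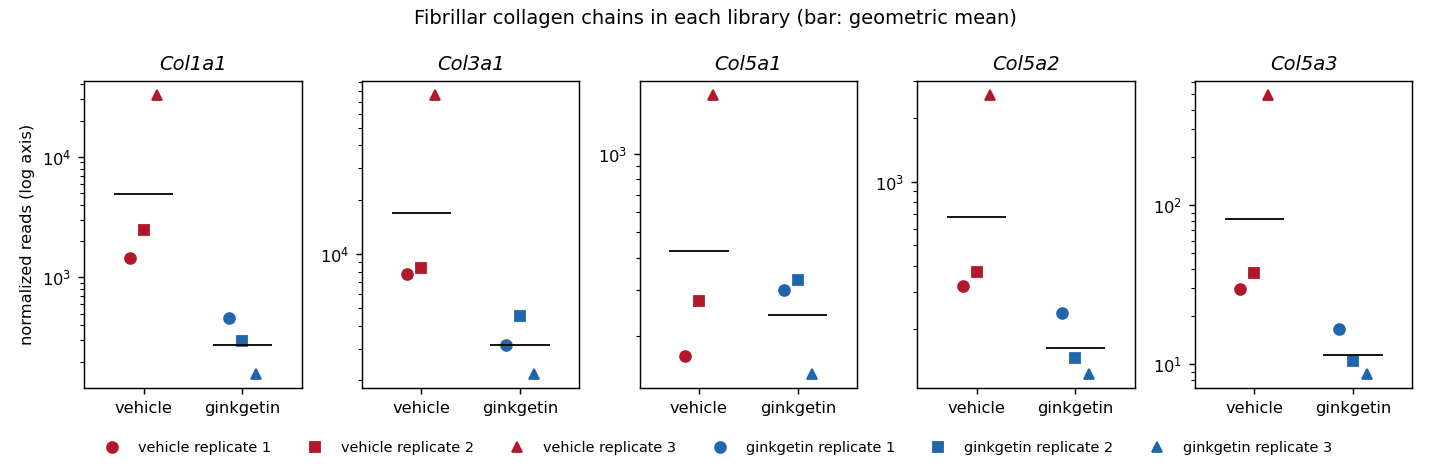
Normalized reads of each chain in each library, with a separate log axis per gene; points are libraries, colours are groups and bars are geometric means. Vehicle replicate 3 is the highest library for all 5 genes, and Col5a1 is the only gene whose groups overlap.

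The type V chains differed in their values. Col5a1 encodes the chain found in nearly every type V molecule, most often together with the product of Col5a2. Col5a1 stood at 167, 271 and 1692 normalized reads across vehicle replicates 1 to 3, against 301, 329 and 142 with ginkgetin. Vehicle replicates 1 and 2 lay between ginkgetin replicate 3 and ginkgetin replicate 1, so the groups overlapped. The difference of -0.81 (SE 0.785, 95% interval -2.62 to 0.99, limma adjusted p = 0.574) rested on vehicle replicate 3. Without that library it was 0.18 (SE 0.385, interval -0.68 to 1.04, limma adjusted p = 0.864).

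Col5a2 stood at 321, 375 and 2578 normalized reads across vehicle replicates 1 to 3, against 239, 146 and 122 with ginkgetin. All ginkgetin libraries lay below all vehicle libraries, although the nearest pair differed by a factor of only 1.35. The difference was -2.06 (SE 0.732, 95% interval -3.74 to -0.37, limma adjusted p = 0.184), and -1.09 (SE 0.314, interval -1.80 to -0.39, limma adjusted p = 0.133) without vehicle replicate 3. On whole reads recovered from the values, DESeq2 called Col5a2 lower (-2.69, adjusted p = 0.0109), where it called 7.51% of all 14639 genes lower. DESeq2 gave no adjusted p for Col1a1, Col3a1 and Col5a3, so its call does not set Col5a2 apart from them.

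Col5a3 encodes another type V chain with a narrow tissue distribution, and it had the fewest reads of the 5. It stood at 29.7, 37.4 and 494 normalized reads across vehicle replicates 1 to 3, against 16.6, 10.4 and 8.66 with ginkgetin. The ginkgetin values come from 15, 9 and 7 reads, and the exact Poisson 95% interval of the highest of them, 9.28 to 27.4, overlaps that of vehicle replicate 1, 19.2 to 43.8. The groups did not overlap in their values. The difference was -2.74 (SE 1.0, 95% interval -5.05 to -0.44, limma adjusted p = 0.190), and -1.46 (SE 0.585, interval -2.77 to -0.15, limma adjusted p = 0.267) without vehicle replicate 3.

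Of the 5 chains, 4 had ginkgetin values entirely below the vehicle values, as did 16.1% of the 14639 genes tested. The same 4 had an unadjusted limma p under 0.05, against 13.2% of genes on the lower side. None of the 5 passed the adjusted threshold, which 0.00683% of genes passed on the lower side. All 5 had lower means, as did 51.4% of genes, while 48.6% had higher means. Of 14639 genes, limma called 2 in all (0.0137%), with 1938 lower and 1025 higher at an unadjusted p under 0.05. On recovered reads edgeR called 0 genes (0%), with 2112 (14.4%) lower at an unadjusted p under 0.05, and DESeq2 called 1375 (9.39%). The median difference over the 5 chains was -2.44, and -1.36 without vehicle replicate 3, beside -0.02 and -0.01 over all genes tested.

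**Figure D2:**
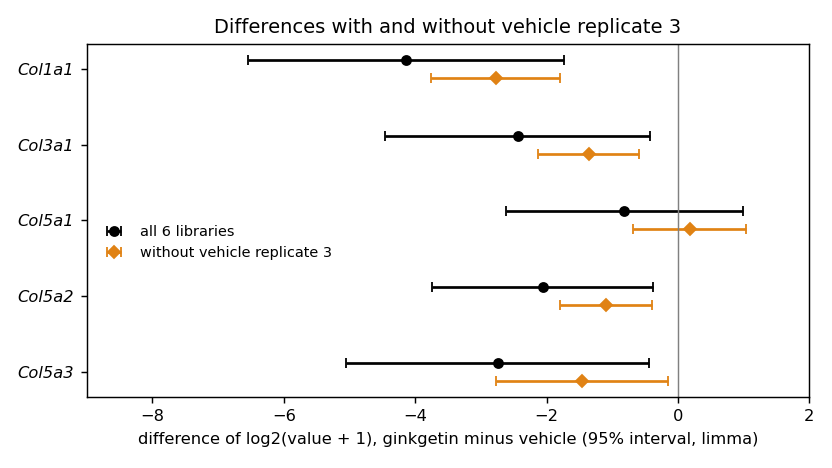
Difference of log2(value + 1) between ginkgetin and vehicle for each chain, with 95% intervals from limma, for all 6 libraries (circles) and without vehicle replicate 3 (diamonds). Each difference lies nearer 0 without that library, Col5a1 crosses from -0.81 to 0.18, and the intervals of the other 4 genes stay below 0.

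The ratio between chains within a library does not depend on how libraries were scaled against each other. It is a ratio of reads, not corrected for transcript length, so it compares libraries and not the amounts of the chains. Among the 10 ratios of pairs, 8 did not overlap between the groups. How often ratios of other gene pairs separate the groups was not computed, so this count has no background beside it. For each of the 8 ratios that did not overlap, the exact permutation test, two-sided, gave p = 0.1, which is as small as this design allows. It was 0.125 after adjustment over the 10 pairs, so none passed 0.05. The 10 ratios share 5 genes and are not independent of each other.

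The 4 ratios with Col1a1 on top were lower in all ginkgetin libraries than in all vehicle libraries. The ratio of Col1a1 to Col3a1 reads was 0.188, 0.297 and 0.429 in vehicle libraries, against 0.146, 0.0649 and 0.0726 with ginkgetin. On the log2 scale the ratio differed by -1.70 between the groups, and by -1.42 without vehicle replicate 3 (exact permutation p = 0.2). Against Col5a1 the separation was wider, with 8.72, 9.12 and 19.3 reads of Col1a1 per read of Col5a1 in the vehicle livers and 1.52, 0.894 and 1.10 with ginkgetin. This was the largest difference of the 10 pairs, -3.33 on the log2 scale, and it was -2.96 without vehicle replicate 3. Col1a1 gave 15.01, 21.5 and 28.7% of the reads of the 5 chains with vehicle, and 11.04, 5.54 and 6.06% with ginkgetin.

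The ratios of Col5a1 to the other chains were higher in all ginkgetin libraries than in all vehicle libraries. The ratio of Col5a1 to Col5a2, the chains that pair in the common type V molecule, was 0.520, 0.723 and 0.656 with vehicle. It was 1.26, 2.25 and 1.16 with ginkgetin, so all vehicle libraries lay below 1 and all ginkgetin libraries above 1. The difference in log2 ratio was 1.24, with group means of 0.57 ± 0.52 (SD, n = 3) and -0.67 ± 0.24 (SD, n = 3). Leaving out vehicle replicate 3 gave 1.27. Here, in contrast to the single genes, vehicle replicate 3 lay between the other vehicle libraries. The ratio of Col3a1 to Col5a1 was 46.3, 30.8 and 44.98 in vehicle libraries, against 10.4, 13.8 and 15.2 with ginkgetin, a log2 difference of -1.63, and -1.54 without vehicle replicate 3.

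Col3a1, Col5a2 and Col5a3 kept nearer to each other. The ratio of Col3a1 to Col5a2 was 24.1, 22.2 and 29.5 in vehicle libraries, against 13.1, 31.1 and 17.7 with ginkgetin, and the groups overlapped (log2 difference -0.38, exact permutation p = 0.5, and -0.27 without vehicle replicate 3). The genes Col3a1 and Col5a2 are neighbours in the RefSeq annotation of the rat assembly GRCr8, with 0 annotated genes between them. Col3a1 to Col5a3 also overlapped (0.30, exact permutation p = 0.5, and 0.10 without vehicle replicate 3). Col5a2 to Col5a3 was 10.8, 10.02 and 5.22 across vehicle replicates, against 14.4, 14 and 14.1 for ginkgetin. This log2 difference of 0.69 was 0.37 without vehicle replicate 3, the lowest library in this ratio. A p of 0.5 does not show that these ratios were equal.

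**Figure D3:**
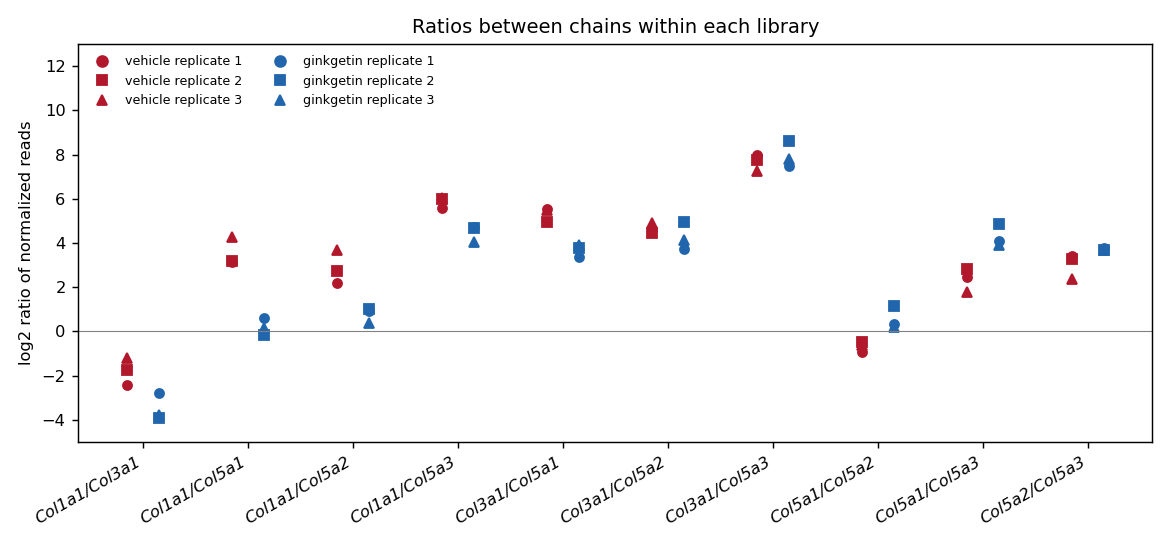
Log2 ratio of normalized reads for each of the 10 pairs of chains, 1 point per library, vehicle on the left and ginkgetin on the right of each pair. The groups are separate in 8 pairs, most widely for Col1a1/Col5a1, and overlap for Col3a1/Col5a2 and Col3a1/Col5a3.

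Promoter sequence was at hand for 3 of the 5 genes, Col5a1, Col5a2 and Col5a3, in RefSeq windows of 300 bases on GRCr8, and Col1a1 and Col3a1 have no entry. The windows are described because the ratio of Col5a1 to Col5a2 separated the groups. The part that lies before every annotated start is printed 5′ to 3′ for Col5a2 (chr9:55090152-55090401, minus strand) and Col5a3 (chr8:27626003-27626198, minus strand). Capitals mark matches on either strand to the 6 motifs named after the sequences, whose letters are those searched. The motifs were chosen after the sequences were seen.
Col5a2: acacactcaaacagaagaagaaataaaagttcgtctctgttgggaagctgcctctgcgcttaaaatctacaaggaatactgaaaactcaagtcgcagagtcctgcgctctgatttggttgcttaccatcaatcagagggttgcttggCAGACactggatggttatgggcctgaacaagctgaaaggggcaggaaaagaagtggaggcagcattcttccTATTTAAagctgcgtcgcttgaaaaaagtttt
Col5a3: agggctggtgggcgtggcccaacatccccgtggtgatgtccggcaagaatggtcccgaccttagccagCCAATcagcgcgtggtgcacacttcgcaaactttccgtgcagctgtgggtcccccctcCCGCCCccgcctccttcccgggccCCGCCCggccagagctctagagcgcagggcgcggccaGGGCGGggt
Over the whole window, Col5a2 held 3 matches to CAGAC, the core of the SMAD binding element, and 1 to TATTTAA, a variant of the TATA box. Of 33469 promoter windows, 50.1% held CAGAC and 4.58% held TATTTAA. Col5a3 held 3 matches to GGGCGG, the GC box bound by Sp1, which is in 33.1% of windows, and 1 to CCAAT, bound by NF-Y, which is in 37.5%. Col5a1 held 1 match to GGGCGG. No window of the 3 held TGANTCA, the AP-1 site, or TATAAA, which are in 7.33% and 14.2% of windows. G and C made up 72.0% of the Col5a1 window, 69.0% of that of Col5a3 and 47.7% of that of Col5a2, beside a median of 51.7% over all windows. A match describes letters and not a bound site.

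Among the other fibrillar collagen genes, 4 were tested and none passed over all genes. Col11a1 encodes a type XI chain that is closely related to Col5a1 and can replace it in mixed molecules. It stood at 46.3, 68.2 and 157 normalized reads across vehicle replicates 1 to 3, against 0, 2.31 and 0 with ginkgetin, which is 376 against 2 reads. The scaled ratio was 132 (exact 95% counting interval 36.2 to 1093), and 76.2 (20.7 to 637) without vehicle replicate 3. Col11a1 had a limma difference of -5.75 (SE 0.749, adjusted p = 0.0668). It passed without vehicle replicate 3 (-5.26), where 0.635% of genes were called lower. The groups did not overlap for Col11a1 and overlapped for the related Col5a1. Col11a2 (0.48), Col24a1 (1.07) and Col27a1 (-0.28) overlapped between the groups. Leaving out vehicle replicate 3 gave 0.04 for Col11a2 and 1.61 for Col24a1. It gave -1.02 for Col27a1 (limma adjusted p = 0.113), whose other vehicle libraries, at 599 and 577 normalized reads, lay above the ginkgetin libraries at 347, 208 and 338. The median of the 4 was 0.10, and -0.49 without vehicle replicate 3.

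Enzymes and chaperones that modify and fold procollagen in the endoplasmic reticulum had differences on both sides of 0. Of 19 tested, 0 passed over all genes, 6 were lower and 1 higher at an unadjusted p under 0.05 (background 13.2% and 7%), and the median difference was -0.18, or 0.11 without vehicle replicate 3. Plod2, the lysyl hydroxylase of the chain ends that directs crosslinks, had the smallest p. It stood at 214, 326 and 1140 normalized reads across vehicle replicates 1 to 3, against 67.4, 31.2 and 18.6 with ginkgetin (-3.62, SE 0.677, limma adjusted p = 0.0804). P3h4 (-2.47), a partner of the lysyl hydroxylases, and Fkbp10 (-2.40), a prolyl isomerase chaperone of collagen, came next. They lay at -2.92, -1.54 and -1.36 without vehicle replicate 3. Plod2 passed there, in a fit that called 0.635% of genes lower.

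Of 11 tested genes for propeptide removal and crosslinking, 0 passed and 4 were lower at an unadjusted p under 0.05 (background 13.2%). Among these 4, Tll1 was at 0 in all ginkgetin libraries and passed the filter on low values only through the vehicle libraries. Its groups were thus bound not to overlap. Their median was -1.10, and -0.33 without vehicle replicate 3. Loxl1, a lysyl oxidase, stood at 306, 653 and 2363 normalized reads against 67.4, 31.2 and 19.8 (-4.45, SE 0.735, limma adjusted p = 0.0688). Adamts2, which cuts the amino propeptide of fibrillar procollagens, had a difference of -2.72 (SE 0.558), and Pcolce, which enhances removal of the carboxyl propeptide, had -2.75 (SE 0.581). Without vehicle replicate 3, Loxl1, Adamts2 and Pcolce lay at -3.65, -2.20 and -2.08. Loxl1 and Pcolce passed in that fit, beside 0.635% of genes called lower.

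Genes for proteins that nucleate fibrils or sit on their surface had a median of -1.47 over 13 tested, and -0.85 without vehicle replicate 3. Of these, 0 were past the threshold and 7 were lower at an unadjusted p under 0.05 (background 13.2%). Postn, which encodes the matricellular protein periostin, stood at 16.6, 32.4 and 2394 normalized reads across vehicle replicates 1 to 3, against 0, 1.16 and 0 with ginkgetin, which is 3954 reads against 1. Its scaled ratio was 2773 (exact 95% counting interval 497 to 109563), and 66.8 (11.5 to 2687) without vehicle replicate 3. Col12a1 (-2.11), a collagen that binds to fibril surfaces, and Sparc (-2.17), a collagen-binding glycoprotein, were the others with the smallest p, at -1.63 and -1.29 without that library.

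Collagen receptors had a median of -0.92 over 9 tested, and -0.90 over 8 without vehicle replicate 3. Of the 9, 0 were past the threshold and 5 were lower at an unadjusted p under 0.05 (background 13.2%). Among these 5, Itga10 passed the filter on low values only through the vehicle libraries. With 0 reads in all ginkgetin libraries, its groups were bound not to overlap. Ddr1, a receptor tyrosine kinase for collagen, stood at 117, 250 and 318 normalized reads across vehicle replicates 1 to 3, against 52.0, 20.8 and 37.1 with ginkgetin (-2.58, SE 0.493, limma adjusted p = 0.0843). Mrc2, an endocytic receptor that takes up collagen, had -3.28 (SE 0.745). Itga10, an integrin subunit, was at 5.93, 3.33 and 4.30 normalized reads across vehicle replicates 1 to 3, against 0 reads in all ginkgetin libraries, at least 1.29-fold lower against a floor of 3 reads per library. Without vehicle replicate 3, Ddr1 lay at -2.29 and Mrc2 at -2.61, and the bound for Itga10 was 1.32.

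Genes of collagen cleavage and its inhibitors were lower in the mean in 9 of 9 tested (background 51.4%), with a median of -1.89, and -1.48 without vehicle replicate 3. None passed and 5 were lower at an unadjusted p under 0.05 (background 13.2%). Mmp2, a gelatinase, stood at 705, 825 and 3513 normalized reads across vehicle replicates 1 to 3, against 164, 280 and 132 with ginkgetin (-2.79, SE 0.594, limma adjusted p = 0.0919). Timp1, an inhibitor of matrix metalloproteinases, had -2.60 (SE 0.699), and Ctsk, a collagen-degrading cathepsin, had -2.16 (SE 0.587). They lay at -2.06, -1.70 and -1.48 without vehicle replicate 3. Mmp2 passed there, beside 0.635% of genes called lower.

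Inducers and regulators of collagen transcription gave 0 of 18 past the threshold, and 6 lower and 1 higher at an unadjusted p under 0.05 (background 13.2% and 7%). Their median was -0.54, or -0.25 without vehicle replicate 3. Ctgf, a matricellular protein induced by TGF-beta, stood at 838, 1249 and 921 normalized reads across vehicle replicates 1 to 3, against 229, 333 and 106 with ginkgetin (-2.29, SE 0.405, limma adjusted p = 0.0766). Unlike the collagen chains, its vehicle replicate 3 lay between the other 2 vehicle libraries. Tgfb2, a TGF-beta ligand, had -1.98 (SE 0.463), and Pdgfa, a growth factor for mesenchymal cells, had -1.48 (SE 0.432). Without vehicle replicate 3 they lay at -1.80 and -1.29, with Ctgf at -2.34.

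**Figure D4:**
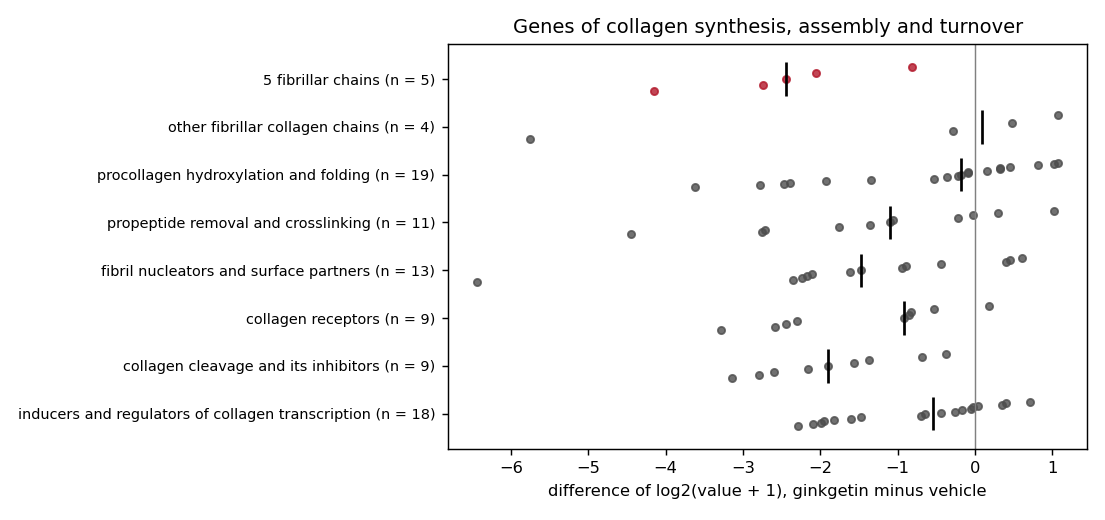
Difference of log2(value + 1) between ginkgetin and vehicle for the 5 chains (top row) and for the tested genes of each pathway list; points are genes, vertical bars are list medians, and the height within a row has no meaning. The chains have a median of -2.44, and procollagen hydroxylation and folding spreads on either side of 0 with a median of -0.18.

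Markers of the cells that could supply collagen were measured in the same libraries. None passed the threshold over all genes with all 6 libraries, and their part in the results was not tested. Without vehicle replicate 3, limma called 2 of 12 stellate cell and myofibroblast markers lower and 1 of 8 portal fibroblast and mesothelial markers. It also called 4 of 7 cholangiocyte and 2 of 8 macrophage markers lower there, beside 0.635% of genes. No marker of the other lists was called in that fit. The marker counts that follow stand beside 51.4% of all genes with lower means, 48.6% with higher means and 16.1% not overlapping on the lower side. Of 12 stellate cell and myofibroblast markers, 8 had lower means with ginkgetin and 5 did not overlap, with a median difference of -0.83, or -0.08 without vehicle replicate 3. Pdgfrb, a growth factor receptor of these cells, stood at 843, 1178 and 2900 normalized reads across vehicle replicates 1 to 3, against 324, 246 and 203 with ginkgetin. Its difference without vehicle replicate 3 was -1.97 (limma adjusted p = 0.0244). Portal fibroblast and mesothelial markers summed to 1192, 2530 and 4959 with vehicle and to 367, 250 and 158 with ginkgetin, with 5 of 8 not overlapping. Smooth muscle markers summed to 236, 408 and 1232 with vehicle and 769, 651 and 334 with ginkgetin, so they overlapped. Cholangiocyte markers summed to 1437, 2072 and 3022 against 558, 348 and 304, with 7 of 7 lower in the mean, Krt19 among them. Hepatocyte markers had higher means in 12 of 12, macrophage markers lower means in 5 of 8, and endothelial markers higher means in 4 of 6. The median differences of these 3 lists were 1.20, -0.95 and 0.48. Without vehicle replicate 3 they were 0.37, -0.36 and 0.48. Markers at 0 in some library were Thy1 and Gli1 of portal fibroblasts (0 in ginkgetin replicate 2), Ngfr of stellate cells and Upk3b of mesothelium (0 in vehicle replicate 1), and Trem2 of scar-associated macrophages (0 in ginkgetin replicates 2 and 3). The endothelial marker Pecam1 was not analysed here. Of the cartilage and bone markers, Acan had reads in 1 of the 6 libraries, at 1.16 normalized reads, and only Sox9, which bile ducts also express, passed the filter.

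The genes nearest to each chain in pattern were found by the root-mean-square difference between log2 profiles centred over the 6 libraries, among 7315 well expressed genes. Nearest to Col1a1 were Gpnmb, Lgals1, Lgals3, RGD1559482 and Loxl1, at 0.464 to 0.609 log2 units. Col3a1 was matched more closely by Thbs2, Col4a1, Fkbp10, Col6a3 and Sparc, at 0.200 to 0.281, and 4 of these 5 encode matrix proteins. For Col5a1 the nearest were Acta2, the smooth muscle actin of myofibroblasts, then Rasa3, Actg1, Tagln, another smooth muscle gene, and Ptafr, at 0.335 to 0.356. Acta2 stood at 67.6, 137 and 1128 normalized reads across vehicle replicates 1 to 3, against 255, 213 and 94.0 with ginkgetin. Its groups overlapped, as those of Col5a1 did. None of these genes passed the threshold in all 6 libraries.

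Nearest to Col5a2 were Ckb, Cotl1, Scd2, Tnfaip8l2 and Myo1f, at 0.147 to 0.200. The nearest to Col5a3 were Fabp5, RGD1559482, Arl11, Capg and Gpx7, at 0.263 to 0.324. For the mean profile of the 5 chains, Col16a1, Arl11, Pkm, Fkbp10 and Fabp5 were nearest, at 0.124 to 0.197, where the median gene lay at 1.79. Among the chains themselves, Col3a1 and Col5a2 were the closest pair at 0.429, and Col1a1 and Col5a1 the most distant at 1.72. Vehicle replicate 3 was the highest library in all 5 profiles and so weighs heavily in this likeness, which is a description over 6 libraries.

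**Figure D5:**
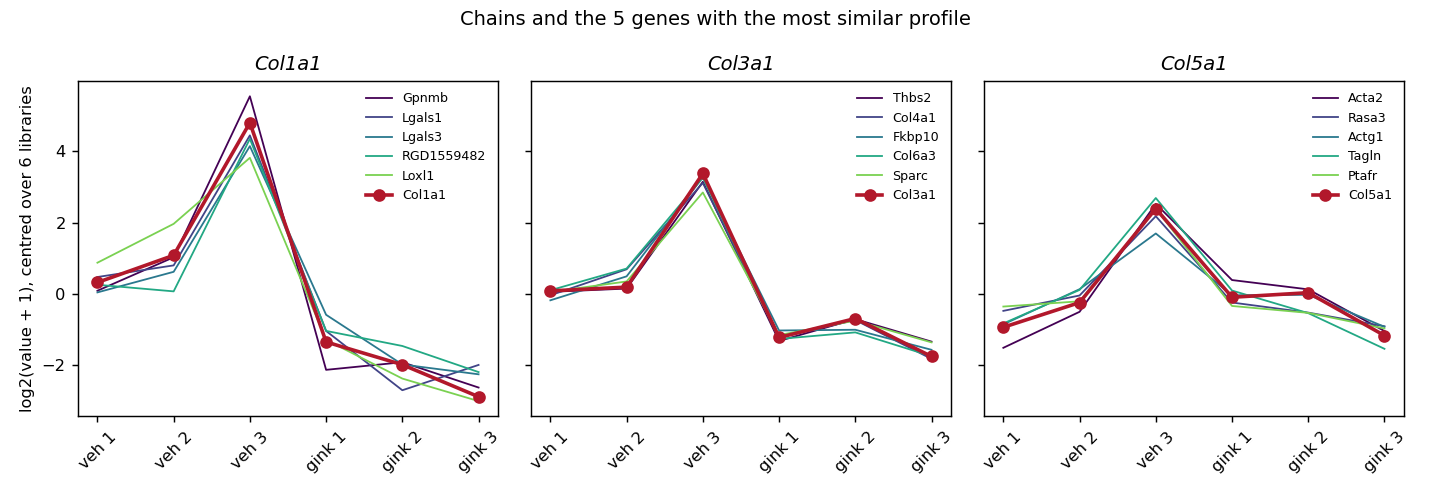
Log2(value + 1), centred over the 6 libraries, for Col1a1, Col3a1 and Col5a1 (thick lines with points) and for the 5 genes with the smallest root-mean-square difference to each (thin lines). Every profile peaks in vehicle replicate 3, and vehicle replicates 1 and 2 lie above the ginkgetin libraries for Col1a1 and Col3a1 but not for Col5a1.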

How the data were processed

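Total RNA of liver was made into libraries with a SMARTER kit for mRNA, per the labels' protocols. The submitters' processing notes name the build mRatBN7.2. Which aligner, counter, annotation and strand setting were used is not given in the sources used here. The authors deposited normalized counts, treated here as a signal whose scaling method is not named. In each library 99.67% were whole multiples of 1 step within 0.02, so reads could be recovered. Columns headed TAA, letters not in the labels, were taken as vehicle replicates 1 to 3 because vehicle is the only other group, and every direction rests on this. The labels do not say that replicates were separate animals, and the p-values then reflect only how far these samples spread, which may be technical. No libraries were duplicates (chi-square per degree of freedom of at least 49.9 within groups).

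The main test was limma 3.58.1 (R 4.3.3, trend and robust moderation) on log2(value + 1), which understates changes of low genes, for genes at 1 or more in at least 3 libraries. Two-sided p-values were adjusted over all 14639 genes (Benjamini-Hochberg), with a threshold of 0.05. Ratios were compared by exact two-sided permutation. edgeR 4.0.16 and DESeq2 1.42.0 on recovered reads, other scalings, filters and pseudocounts, a replicate block and leaving out each library were alternatives. The procedure was checked on simulated reads that gave every gene the same dispersion and had no library that stood apart. That check therefore does not cover a library such as vehicle replicate 3. The members and lists were chosen with earlier results of these data known. Named genes were the members, the 3 smallest p of each pathway list, the 5 genes nearest in profile and markers that define the tissue or are at 0 in a library. Col27a1, Tll1, Vim, Clec4f and Marco were named after their values were seen. Promoter sequences are from RefSeq (GRCr8), matched by symbol for 3 of 5 members.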

Additional observations from a re-analysis of the deposited data

How the results depend on the processing

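Col1a1, Col3a1, Col5a2 and Col5a3 kept a negative difference in all 17 alternatives run, from -5.33 to -2.78, -3.23 to -1.36, -2.69 to -1.09 and -3.97 to -1.46. Col5a1 ran from -1.49 to 0.18 and reversed without vehicle replicate 3. Calls appeared for Col1a1 without vehicle replicate 1 or 3 (-5.02 and -2.78) and for Col5a2 in DESeq2 (-2.69), which gave no p for Col1a1, Col3a1 and Col5a3. With 1 library left out, Col1a1 ran from -5.02 to -2.78. Of 80 ratio values 78 kept their sign. Col3a1/Col5a3 reversed with a pseudocount of 8 (-0.16) and ran from -0.026 to 0.55 with 1 library left out. Equal library totals moved the median of all genes to -0.53, and Col11a2 to -0.0072.

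The number of genes called, 2 in the main fit, was 5 with a pseudocount of 8, 1 with quantile scaling, 94 with equal totals, 0 in edgeR, 1375 in DESeq2 and 0 to 753 with 1 library left out (753 without vehicle replicate 1, 112 without vehicle replicate 3). Replicate numbers showed no sign of pairing: same-numbered libraries had correlations of deviations of -0.163, 0.029 and -0.211. Libraries with unlike numbers had -0.103 to 0.198. With 3 libraries per group these correlations cannot exclude a paired design. With a replicate block 0 genes were called, and the block changed no call of a chain (Col1a1 adjusted p = 0.212, limma).

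List members called were 0 in the main fit. These counts cover both directions. With equal totals, where 94 genes were called in all, other fibrillar chains and hydroxylation and folding had 1 each. Propeptide removal and crosslinking, and regulators, also had 1 each. In DESeq2, which called 9.39% of all genes, there were 1 of 4, 6 of 19 and 3 of 11 for the first 3 of these. It called 6 of 18 regulators, 3 of 13 nucleators and partners, 2 of 9 receptors and 5 of 9 cleavage genes. With 1 library left out the counts ran from 0 to 1 for other chains, folding, and nucleators. They ran from 0 to 2 for receptors and regulators, and from 0 to 3 for crosslinking and cleavage. Over all genes, those fits called 0 to 753. On the lower side they called 3.32% of genes without vehicle replicate 1 and 0.635% without vehicle replicate 3. The median of other fibrillar chains was -0.28 with a filter of 10 and -0.40 with equal totals, and -0.49 to 0.34 with 1 library left out. Folding genes lay at -0.70 and regulators at -1.06 with equal totals, with left-out ranges of -0.35 to 0.11 and -0.71 to -0.25. Crosslinking genes lay at -0.40 with a pseudocount of 8 and from -1.40 to -0.33 with 1 library left out. Receptors lay at -1.72 with a filter of 10, -2.07 in edgeR, -2.12 in DESeq2 and from -1.57 to -0.90 with 1 library left out. Among the 5 chains Col5a3 had the fewest reads, 7 to 15 per ginkgetin library, and Col11a1, Postn and Itga10 had 2, 1 and 0 reads over the ginkgetin libraries.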

Other observations

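Relative to Pdgfrb, a receptor of stellate cells and fibroblasts, the chains gave different orders of the libraries. These are ratios of reads, not corrected for length, chosen after the data were seen and given without a test. Pdgfrb, Pdgfra and Vim were themselves lower in all ginkgetin libraries than in all vehicle libraries (log2 differences -2.49, -1.36 and -2.47). A higher ratio to these genes is therefore not a higher level of the chain. Col1a1 gave 1.73, 2.10 and 11.3 reads per Pdgfrb read with vehicle and 1.41, 1.19 and 0.774 with ginkgetin, so the groups did not overlap. Col3a1 gave 9.18, 7.08 and 26.2 with vehicle and 9.67, 18.4 and 10.7 with ginkgetin, with vehicle replicates 1 and 2 below all ginkgetin libraries. Col5a1 gave 0.198, 0.230 and 0.583 with vehicle and 0.928, 1.33 and 0.701 with ginkgetin. This ratio was higher in all ginkgetin libraries, although the values of Col5a1 itself overlapped between the groups. The orders for Col3a1 and Col5a1 were different against Pdgfra, another receptor of these cells. Col3a1 per Pdgfra read was 15.6, 12.7 and 73.7 across vehicle replicates, against 11.7, 14.03 and 9.45 for ginkgetin. Col5a1 per Pdgfra read was 0.337, 0.412 and 1.64 across vehicle replicates, against 1.12, 1.02 and 0.622 for ginkgetin, and overlapped. Col1a1 per Pdgfra read was 2.94, 3.76 and 31.6 across vehicle replicates, against 1.71, 0.910 and 0.686 for ginkgetin, and did not overlap.

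Relative to Vim, the vimentin of mesenchymal cells, Col5a1 was nearly level in the vehicle libraries, at 0.0938, 0.0983 and 0.0947, and stood at 0.215, 0.507 and 0.248 with ginkgetin. Vehicle replicate 3 did not stand apart in this ratio. Col5a2 relative to Vim was 0.180, 0.136 and 0.144 in vehicle libraries, against 0.170, 0.225 and 0.214 with ginkgetin, and overlapped. Col1a1 relative to Vim was 0.818, 0.897 and 1.83 in vehicle libraries, against 0.326, 0.454 and 0.274 with ginkgetin, and did not overlap. Vim itself stood at 1784, 2758 and 17856 normalized reads across vehicle replicates 1 to 3, against 1402, 648 and 573 with ginkgetin. Vim is expressed by many cell types, so this is not a ratio per stellate cell.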
